A study of Mus musculus with 2 samples.

Results

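The Hox clusters of the mouse hold 6 counted microRNA genes, Mir10a, Mir10b, Mir615, Mir196b, Mir196a-2 and Mir196a-1, whose levels are described here in the liver at embryonic day 11.5. They were selected by GENCODE gene symbol and place in the clusters, by a rule that uses no measured value but was written with earlier results of these data known, and make up 6 of the 1973 microRNA genes counted. Small RNA with a labelled size range under 30 nucleotides was sequenced from livers of B6NCrl embryos of both sexes, pooled. The labels name 2 biological replicates of 1 group: replicate 1 came from a pool of 109 embryos, and the pool size of replicate 2 was not stated. All embryos were labelled healthy, no mutation or treatment is named, and there is no second condition. The data thus bear on the reads assigned to each gene and on how far the pools differed.

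Hox genes encode transcription factors that give cells their position along the body axis. Each of the 4 clusters is read in 1 direction, with genes of low group number at its 3′ end active towards the head and genes of high number at its 5′ end active towards the tail. MicroRNAs are short RNAs that repress messenger RNAs, mainly through pairing of the seed, bases 2 to 8 of the mature strand. The miR-10 and miR-196 families lie at set places between Hox genes and are known to act on Hox messenger RNAs, the best known case being cleavage of the Hoxb8 message by miR-196. The embryonic liver is itself a mixed organ, in which hepatoblasts, endothelium and mesenchyme surround blood-forming cells.

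The mature strands are shown first, because they decide which reads can be told apart. All 6 genes matched RefSeq mature sequences on GRCm38.p6, with 12 arms, of which 11 are distinct. The 5′ arms of the miR-10 and miR-196 genes, which fall into 2 groups by seed, and both arms of Mir615 read as follows, 5′ to 3′, with the seed in capitals:
miR-10a-5p of Mir10a: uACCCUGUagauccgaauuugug
miR-10b-5p of Mir10b: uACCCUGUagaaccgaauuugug
miR-196a-5p of Mir196a-1 and Mir196a-2: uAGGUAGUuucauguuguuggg
miR-196b-5p of Mir196b: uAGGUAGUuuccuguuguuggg
miR-615-5p of Mir615: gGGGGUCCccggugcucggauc
miR-615-3p of Mir615: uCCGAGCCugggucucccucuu
The miR-10 pair shares the seed ACCCUGU, which no other mature microRNA in the RefSeq table carries. Over 23 bases the arms differ by the single substitution U12A, counted from 1 at the 5′ end with the base of miR-10a first. The miR-196 genes share the seed AGGUAGU among themselves and with no other gene of that table, and miR-196a-5p and miR-196b-5p differ over 22 bases by A12C. In both families the difference lies outside the seed, at the same position of the strand.

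The copies Mir196a-1 and Mir196a-2 cannot be separated by their 5′ arm. Their hairpins are shown with the longest stretch they share in capitals:
Mir196a-1 hairpin: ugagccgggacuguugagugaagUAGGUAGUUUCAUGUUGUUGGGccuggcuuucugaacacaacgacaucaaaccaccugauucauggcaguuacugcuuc
Mir196a-2 hairpin: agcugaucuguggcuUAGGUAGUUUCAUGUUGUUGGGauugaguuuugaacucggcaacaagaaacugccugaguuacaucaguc
The shared stretch of 22 bases is the whole of miR-196a-5p and no more. Reads matching several places form a class of their own in the deposited counts, 22.0% of all reads in replicate 1 and 22.6% in replicate 2, so a read that is just this arm would be credited to neither gene if the shared match placed it in that class, which was not checked on reads. The 3′ arms of the 2 copies differ at 17 of 22 positions and do tell them apart. For Mir10a, Mir10b, Mir615 and Mir196b no mature arm occurs in the precursor of another counted gene, and the longest run shared with one is 15 bases, between Mir10a and Mir10b. Counts of Mir196a-1 and Mir196a-2 can therefore be too low, a limit not found for the other 4 genes from their mature arms. The counts are per gene and do not say which arm was read.

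By position the members fall into 3 places of the cluster, all on the strand of their Hox genes. Coordinates are those of GENCODE M21 on mm10 (GRCm38). Mir10a (chromosome 11, 96317165 to 96317274, plus strand) lies between Hoxb5 and Hoxb4, 0.992 kb before the start of Hoxb4, with no other gene over it. Mir10b (chromosome 2, 74726070 to 74726137, plus strand) lies between the ends of Hoxd8 and Hoxd4, inside introns of long transcripts of Hoxd4 and Hoxd3. Mir615 (chromosome 15, 103014910 to 103015001, plus strand) lies in an intron of Hoxc5, 3.03 kb past the end of Hoxc6. The miR-196 genes all precede a group 9 gene. Mir196b (chromosome 6, 52230081 to 52230165, minus strand) begins 1.03 kb past the end of Hoxa10 and overlaps exons of 2 noncoding transcripts of Hoxa9, with no coding sequence or UTR annotated over it. Mir196a-2 (chromosome 15, 102973350 to 102973434, plus strand) begins 1.46 kb past the end of Hoxc10, in an intron of a long Hoxc5 model. Mir196a-1 (chromosome 11, 96265164 to 96265265, plus strand) lies 6.19 kb before the start of Hoxb9, outside other genes. No other counted microRNA gene lies between the outermost Hox genes of any cluster.

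**Figure D1:**
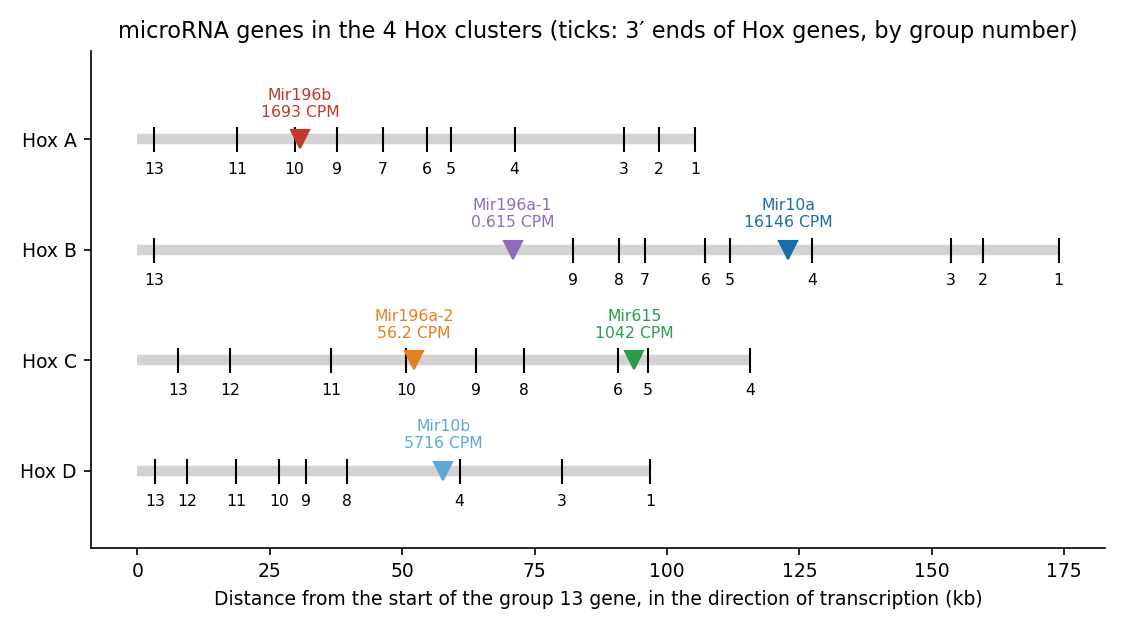
Map of the 4 Hox clusters drawn in the direction of transcription, with distance from the start of the group 13 gene in kb on the x axis. Ticks mark the 3′ ends of Hox genes by group number and triangles mark the microRNA genes with their mean CPM (counts per 1000000 assigned counts, n = 2), which runs from 16146 CPM for Mir10a next to Hoxb4 down to 0.615 CPM for Mir196a-1 before Hoxb9.

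Depth set the precision of every value. Replicate 1 had 3344673 reads assigned to microRNA genes on the strand of the gene and replicate 2 had 1584499. Levels are given as CPM, the count per 1000000 of those assigned reads. How evenly different microRNAs were turned into reads was not tested, so comparisons between genes are of assigned reads. The limit that a count of 0 allows, 3 counts, is 0.897 CPM for replicate 1 and 1.89 CPM for replicate 2. A gene was called detected at 10 or more counts in both libraries, which 347 of 1973 genes (17.6%) and 5 of the 6 members met. The exception was Mir196a-1. Of the hepatocyte list of 6 genes, 4 were detected. Among them Mir122 was at 30679 and 34487 CPM in replicates 1 and 2, and Mir192 at 928 and 1560 CPM. Mir148a, at 1725 and 1226 CPM, and Mir194-2, at 1423 and 814 CPM, were lower in replicate 2. Mir194-1, with 48 and 8 counts, and Mir802, with 9 and 3 counts, were not detected. Mir194-1 shares a run of 22 bases with Mir194-2 and can be counted too low. Marker lists of other cell types took between 0.531 and 0.534% (leukocyte, 4 counted genes, without the opposite-strand reads at Mir142b), 0.795 and 1.10% (erythroid, 2), 2.25 and 3.34% (mesenchymal and smooth muscle, 6), 5.74 and 8.01% (endothelial, 1), 0.192 and 0.245% (pancreas and gut, 4) and 0.0797 and 0.0884% (striated muscle, 8, with Mir133a-1, Mir133a-2 and Mir1a-1 at 0, the first pair sharing a run of 31 bases) of assigned counts. At Mir142b the opposite strand held 140377 and 62714 reads in replicates 1 and 2. Mir223, the leading counted gene of the leukocyte list, had 16503 and 8060 counts. The leukocyte share leaves those opposite-strand reads out and cannot be ranked against the other lists. For Mir1a-1, sequence shared with Mir1a-2, which is listed but was not counted, was not checked. The hepatocyte list of 6 genes took 3.48 and 3.81%, but its median log2 ratio of replicate 2 over replicate 1 was -0.37. Of 5 counted neural genes, Mir9-2, Mir124a-1 and Mir124a-3 were at 0 in both libraries, and the list reached 0.000329% in replicate 1 and 0% in replicate 2. Each of the 5 has a run of 20 or more bases in common with another gene of the table and can be counted too low. Whole livers were sequenced, so fewer cells of a type and less RNA per cell cannot be told apart, nor do these data show which cells held the Hox cluster microRNAs.

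The Hox cluster microRNAs were led by the genes next to group 4. Together the 6 genes took 2.478% of assigned counts in replicate 1 (95% exact Clopper-Pearson interval 2.461 to 2.495) and 2.453% in replicate 2 (2.429 to 2.477). These intervals overlap and cover counting error only, since the sources describe no molecular identifiers. Mir10a and Mir10b made up 88.4% of the members' counts in replicate 1 (88.1 to 88.6) and 89.0% in replicate 2 (88.7 to 89.3). The members' sum was thus close to the same in both pools, and most of it was assigned to the miR-10 pair.

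Mir10a, the miR-10 gene of the Hox B cluster, had the most assigned reads of the members. It had 53014 counts in replicate 1, or 15850 CPM (95% exact Poisson interval 15716 to 15986), and 26053 counts in replicate 2, or 16442 CPM (16243 to 16643). Its mean was 16146 ± 419 CPM (SD, n = 2), rank 18 of all counted genes, and the SD was 2.59% of the mean. Mir10b, the miR-10 gene of the Hox D cluster, had 20213 counts or 6043 CPM (5960 to 6127) in replicate 1 and 8537 counts or 5388 CPM (5274 to 5503) in replicate 2. Its mean was 5716 ± 464 CPM (SD, n = 2), at rank 45. Both libraries placed Mir10a far above Mir10b, and the difference of their means, 10431 CPM, was many times either SD.

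Reads of the 5′ arm can be split between Mir10a and Mir10b only where they cover the base of U12A, while the 3′ arms differ at 3 positions (A3G, U9A and A10U). Mir10a held 72.4% of the counts of the pair in replicate 1 (72.1 to 72.7) and 75.3% in replicate 2 (74.9 to 75.8), which is 2.62 and 3.05 reads of Mir10a for each of Mir10b. This ratio does not depend on how the libraries were scaled. The intervals of the shares did not overlap, so the split differed between the pools by more than counting error. A read of this size range can span a whole mature strand, so counts were not divided by length. With division by the annotated gene length (110 bases for Mir10a, 68 for Mir10b) the ratios were 1.62 and 1.89, with Mir10a still above.

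Mir615, the gene inside Hoxc5, had 2951 counts or 882 CPM in replicate 1 (851 to 915) and 1905 counts or 1202 CPM in replicate 2 (1149 to 1258), a mean of 1042 ± 226 CPM (SD, n = 2) at rank 108. Mir10a had 18.0 times as many reads in replicate 1 and 13.7 times as many in replicate 2. Its CPM was higher in replicate 2, whereas those of Mir10b, Mir196b and Mir196a-2 were higher in replicate 1.

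Among the miR-196 genes nearly all counts were those of Mir196b, which lies by Hoxa9, a gene known from blood stem and progenitor cells. Mir196b had 6455 counts or 1930 CPM in replicate 1 (1883 to 1978) and 2306 counts or 1455 CPM in replicate 2 (1397 to 1516), with a mean of 1693 ± 336 CPM (SD, n = 2) at rank 90. Mir196a-2, in the Hox C cluster, had 247 counts or 73.8 CPM (64.9 to 83.7) in replicate 1 and 61 counts or 38.5 CPM (29.4 to 49.5) in replicate 2, a mean of 56.2 ± 25.0 CPM (SD, n = 2). Mir196a-1, in the Hox B cluster, had 2 counts in replicate 1 and 1 in replicate 2, or 0.598 CPM (0.0724 to 2.16) and 0.631 CPM (0.0160 to 3.52). Its counts were under the 3 that a count of 0 would allow, so no ratio is given for it. Mir196b took 96.3% of the counts of the 3 genes in replicate 1 (95.8 to 96.7) and 97.4% in replicate 2 (96.7 to 98.0). Reads of the shared arm shown above may be counted under neither copy, so these shares describe assigned reads and are not the make-up of the miR-196 family. How much miR-196a-5p the livers held cannot be read from these counts.

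**Figure D2:**
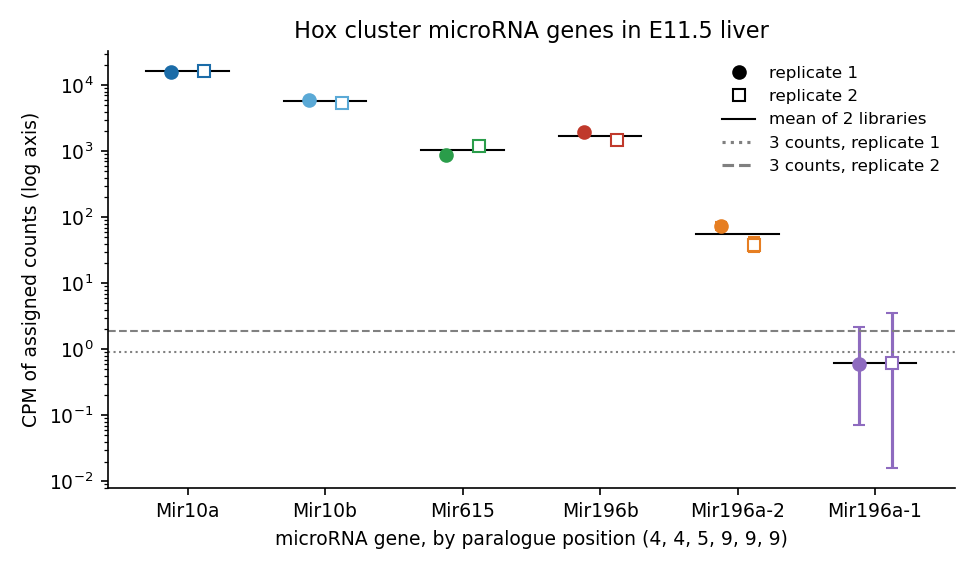
CPM of each member on a log axis, with filled circles for replicate 1, open squares for replicate 2, bars for the 95% exact Poisson interval and a line for the mean of the 2 libraries. The genes run from the group 4 to the group 9 position: Mir10a and Mir10b are at 5388 CPM or more in both libraries, Mir615 and Mir196b lie between 882 and 1930 CPM, and Mir196a-1 lies below the level of 3 counts in each library.

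Read along the body axis, assigned counts were highest at group 4 but did not fall step by step towards group 9. Both libraries gave the same order, Mir10a, Mir10b, Mir196b, Mir615, Mir196a-2 and Mir196a-1, so the group 9 gene Mir196b stood above the group 5 gene Mir615. Mir196b had 2.19 times the reads of Mir615 in replicate 1 (2.09 to 2.29) and 1.21 times in replicate 2 (1.14 to 1.29). The difference of their means, 650 CPM, exceeded the SDs of 336 and 226 CPM. Values of neighbours in this order did not overlap between genes in these 2 libraries, but an exact two-sided permutation test of 2 values against 2 cannot go below p = 0.333, so none was run. The position of Mir196a-1 and Mir196a-2 in the order carries the limit of the shared arm.

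Among all detected genes the members were spread widely. Mir10a lay above 94.8% of the 347 detected genes, Mir10b above 87.0%, Mir196b above 74.1%, Mir615 above 68.9% and Mir196a-2 above 31.4%. The median of the detected genes was 264 CPM, which 4 of the members exceeded in both libraries.

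**Figure D3:**
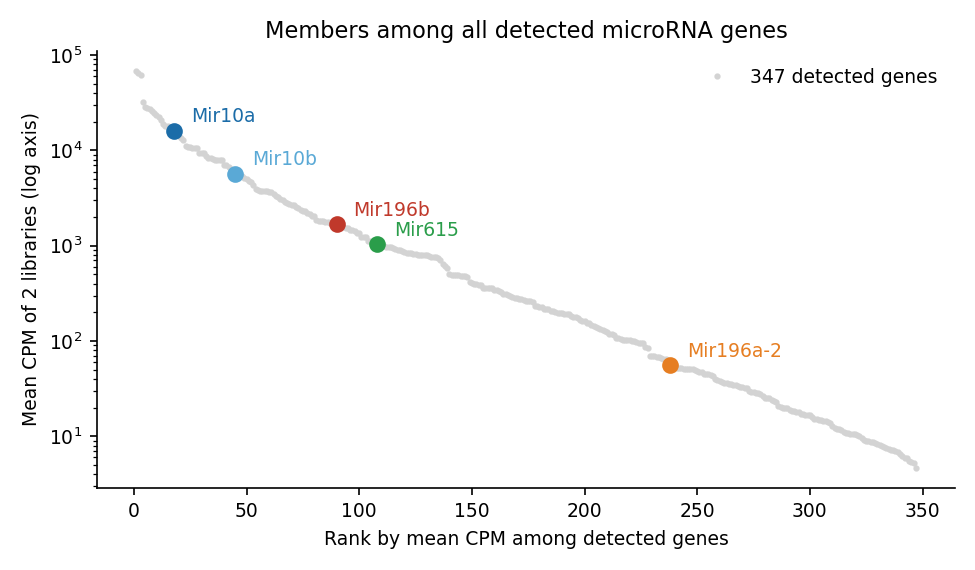
Mean CPM of 2 libraries on a log axis against rank, for the 347 detected genes (grey) and the 5 detected members (coloured). Mir10a is at rank 18 and Mir10b at 45, Mir196b and Mir615 follow at 90 and 108, and Mir196a-2 is at 238 with 56.2 CPM.

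The genes closest to each member in level were found by the distance of log2(CPM + 1) over the 2 libraries, which describes level and nothing of function. For Mir10a they were Mir99b, with 16818 and 19261 CPM in replicates 1 and 2, and Mir487b of the imprinted Dlk1-Dio3 region, with 17047 and 19289 CPM. Mir10b lay nearest to Mir423, with 5552 and 5157 CPM, and to the myeloid Mir223, with 4934 and 5087 CPM. Mir615 was nearest to Mir674 (928 and 1116 CPM) and Mir183 (913 and 1044 CPM). The nearest to Mir196b was Mir503, with 1926 and 1472 CPM at a distance of 0.0171, followed by Mir302d with 1760 and 1306 CPM. Mir196a-2 lay nearest to Mir18b (67.3 and 34.1 CPM) and Mir1198 (62.8 and 40.4 CPM). Mir503 matched Mir196b in both libraries to within the counting interval of Mir196b.

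The pools were then compared gene by gene, which tests 2 libraries and not conditions. Each gene with at least 10 summed counts was tested by a two-sided exact binomial test with TMM library sizes (edgeR's trimmed mean of M values) and Benjamini-Hochberg adjustment over 454 genes, of which 33 (7.27%) were called at an adjusted p under 0.05 and at least 2-fold. None of the 5 tested members was called by this binomial test, and Mir196a-1, with 3 summed counts, was not tested. All 5 tested members had an unadjusted p under 0.05 by the binomial test, as did 243 of the 454 genes (53.5%). At an adjusted p under 0.05 without the fold minimum all 5 passed, as did 223 of the 454 genes (49.1%). Of the members 3 passed with a higher level in replicate 1, as did 23.1% of all tested genes, and 2 with a higher level in replicate 2, as did 26.0%. At this depth the test passes differences far smaller than 2-fold. Log2 ratios below are replicate 2 over replicate 1.

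Mir196a-2 had the largest difference of the members, with a log2 ratio of -0.87 (adjusted p = 2.65e-05 by the binomial test). Mir615 was higher in replicate 2, with 0.51 (adjusted p = 2.63e-31), and Mir196b higher in replicate 1, with -0.35 (adjusted p = 5.51e-23). Mir10a and Mir10b were nearest to equal, with 0.11 (adjusted p = 7.83e-25) and -0.10 (adjusted p = 7.35e-08). The 5 members thus differed in both directions, with a median of -0.10 against 0.01 over all tested genes, and a median fold of 1.27 against 1.34. Under edgeR's exact test, given a biological coefficient of variation of 0.2 by assumption, 1 of 454 genes was called and 51 had an unadjusted p under 0.05. None of the 5 members was among these 51, and the lowest unadjusted p was 0.0610, for Mir196a-2. Between the same libraries the endothelial list went from 5.74 to 8.01% and the erythroid list from 0.795 to 1.10% of assigned counts. The mesenchymal and smooth muscle list went from 2.25 to 3.34%, but its 6 genes had a median log2 ratio of -0.02. In that list Mir143 went from 11472 to 23596 CPM, while Mir214, Mir199b and Mir199a-2 were lower in replicate 2. Mir145a and Mir199a-1 had log2 ratios of 0.07 and 0.11. The part of these lists in the members' differences was not tested.

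**Figure D4:**
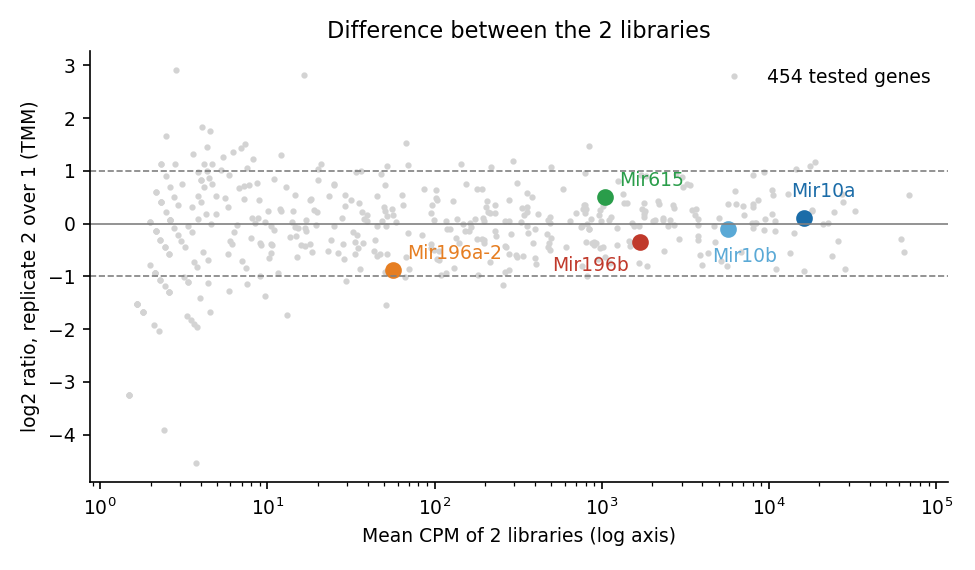
Log2 ratio of replicate 2 over replicate 1 with TMM scaling against mean CPM on a log axis, for 454 tested genes (grey) and 5 members (coloured), with dashed lines at 2-fold. All 5 members lie inside the dashed lines, from -0.87 for Mir196a-2 to 0.51 for Mir615.

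Relatives by sequence took more assigned counts in sum than the Hox cluster genes. The miR-99 and miR-100 genes belong to the miR-10 superfamily but lie outside the Hox clusters, and let-7 carries the seed letters of miR-196 shifted by 1 base. The pairs are shown with their longest shared stretch in capitals:
miR-10a-5p: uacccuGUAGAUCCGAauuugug
miR-99a-5p: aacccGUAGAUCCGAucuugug
miR-196b-5p: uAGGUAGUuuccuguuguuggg
let-7g-5p: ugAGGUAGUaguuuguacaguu
The first pair shares 10 bases, 7 to 16 of miR-10a-5p, of which only bases 7 and 8 belong to its seed. Outside this longest stretch, both strands also carry ACCC right after their first base, within the seed. In the second pair the 7 shared bases are the seed of miR-196b and bases 3 to 9 of let-7g. The 3 genes Mir99a, Mir99b and Mir100 took 4.67 and 5.71% of assigned counts in replicates 1 and 2, led by Mir99a at 27571 ± 4670 CPM and Mir99b at 18040 ± 1727 CPM (SD, n = 2). Of 12 listed let-7 genes, 10 were counted and took 3.57 and 3.49%. Mirlet7g led at 21060 ± 696 CPM, followed by Mirlet7i at 9422 ± 93.0 CPM. Sequence shared between let-7 genes was not checked, so some can be counted too low. The let-7 share and order describe assigned reads and are not the make-up of the family. Each list exceeded the 2.478 and 2.453% of the Hox cluster genes in both libraries; the difference was not tested over these 2 libraries. By the binomial test 0 of 3 miR-10 relatives and 0 of 10 let-7 genes were called at 2-fold, against 7.27% of all tested genes, while 3 and 8 of them had an unadjusted p under 0.05, which 243 of the 454 tested genes (53.5%) had. edgeR's exact test with the assumed variation also called none of them.

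Reads on the opposite strand were almost absent at the members. The deposited column for that strand held 0 reads at all 6 genes in replicate 1, and in replicate 2 held 2 reads at Mir196a-2 and 0 at the other 5. Those 2 reads are fewer than the 3 that a count of 0 would allow. Apart from these 2 reads, small RNA from the opposite strand of these loci was not seen at this depth.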

How the data were processed

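The authors deposited, for each of 2 libraries, raw counts of reads per microRNA gene in 3 columns: either strand, the strand of the gene and the opposite strand, a layout read from the files. Alignment to mm10 and GENCODE M4 annotation are named in the deposited descriptions. The aligner, counter and trimming are not given in the sources used here. The 4 summary classes that name no gene stayed out of library sizes. Their shares of all reads in replicates 1 and 2 were 38.1 and 37.8% unmapped, 22.0 and 22.6% mapping to several places, 13.6 and 10.7% outside counted genes, and 0 ambiguous on the strand of the gene. CPM were computed here from the strand of the gene. M21 of GENCODE gave names and coordinates by gene identifier (1894 of 1973 matched); M4 itself was not used here, and Mir10b and Mir196a-2 have a later version in M21. Library sizes used TMM over genes with 10 or more summed counts, and 0.5 was added to counts for log2 ratios. The binomial test was tested on simulated data with counting error only and with total library sizes. How it behaves with variation between pools, or with TMM, was not simulated.

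The members, by a rule without measured values, and the lists were chosen with earlier results of these data known. Named genes were the members, the 2 nearest in level to each detected member, and other counted genes in the Hox clusters or sharing a seed. The 2 leading relatives of each list were named too, with leading or absent markers and others that differ from them. Alternatives covered the strand column, library scaling (DESeq2 size factors among others), length, filters, added counts, fold rules, assumed variation and each library alone. Tools were edgeR 4.0.16 and DESeq2 1.42.0 in R 4.3.3, and Python 3.11.15 with scipy 1.17.1, numpy 2.4.6, pandas 2.3.3 and matplotlib 3.10.9.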

Additional observations from a re-analysis of the deposited data

How the results depend on the processing

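Of 70 alternatives, 12 moved a value by more than its SD or a count by more than 1.5 times, and none reversed a direction. Part of this was fixed in advance. With 1 library left out, the other always lies within 1 SD of their mean. Only a log2 ratio could be labelled reversed, and changing the added count leaves its p unchanged. The tally is therefore no measure of robustness. The members kept their order in both libraries with division by gene length, the one scaling run that could change it. The number of members detected was 6 at 1 or more counts and 4 at 100 or more, in place of 5. Counting both strands moved Mir10a from 16146 to 14656 CPM, Mir10b from 5716 to 5189 CPM, Mir196a-1 from 0.615 to 0.558 CPM and the summed share from 2.47 to 2.24%, since opposite-strand reads of other genes join the total. Leaving Mir126a out of the total gave 17345 CPM for Mir10a and 0.660 CPM for Mir196a-1, by construction. Division by gene length gave 11978, 6863 and 0.492 per 1000000 for Mir10a, Mir10b and Mir196a-1. The 33 genes called between libraries became 25 with no filter on counts, 15 at 100 or more summed counts, where fewer genes are tested, 223 with no fold minimum, and 1 with the assumed variation. With 1 library alone Mir10a ranged from 15850 to 16442 CPM and Mir196a-2 from 38.5 to 73.8 CPM, and no ratio between libraries could be had. No paired analysis was possible because both libraries belong to 1 group. For Mir196a-1 the counting interval bounds uniquely assigned reads only.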

Other observations

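How often a repeated arm goes with low counts was looked at across all genes, after the values of Mir196a-1 and Mir196a-2 had been seen, and is given as a description. Of 53 genes with 1 mature arm repeated in another counted gene and another arm that is not, 34 (64.2%) were detected, with a median of 61.6 CPM among those detected. Mir196a-2, at 56.2 CPM, lay close to that median, and Mir196a-1 was 1 of those not detected. Of 96 genes with at least 1 arm repeated, those with every arm repeated included, 39 (40.6%) were detected, with a median of 64.3 CPM. Of 820 genes with no arm repeated, 272 (33.2%) were detected, with a median of 359 CPM. Mir10a, Mir10b, Mir615 and Mir196b all lay above that median. By another measure, 75 of 907 genes (8.27%) whose precursor has 20 or more bases in common with another were detected, both Mir196a genes being in this class. Of the rest, 272 of 987 (27.6%) were detected. The shares of detected genes thus differ in opposite directions by the 2 measures. The measures cover different sets of genes, since only the first requires a RefSeq mature arm, so they cannot be set directly against each other.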
